A study of Schizosaccharomyces pombe with 2 samples.

Results

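The RNAs described here are the small nucleolar RNAs (snoRNAs) that act in cleavage of the ribosomal RNA precursor in fission yeast: U3, encoded by the genes snu32 (SPSNRNA.07) and snu3 (SPSNRNA.03), and U17, encoded by snR30 (SPSNORNA.20). They were chosen by identifier, with earlier results of these data known but no threshold on their values, and are 3 of the 12684 features of the count table. The questions asked were how the U3 genes are used relative to each other, and how U3 and U17 compare with U14 (snoU14, SPSNORNA.21), another snoRNA of pre-rRNA cleavage, and with mRNAs.

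The data are nanopore reads of native RNA, collected for a study of the locus that encodes U14. A single group was measured, in 2 biological replicates of vegetative haploid h- Schizosaccharomyces pombe, called wild type in the labels. All cells carried leu1-32, a leucine auxotrophy allele, and pat1-L95G::kanR, an allele of the kinase gene whose activity keeps cells out of meiosis, and they grew for 2 days at 30 °C in minimal medium. Total RNA was depleted of rRNA, and 350 ng was polyadenylated in vitro, so that RNAs without a natural poly(A) tail, such as snoRNAs, could enter the libraries. With a single group, no comparison between conditions was possible.

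The count table held 12871729 reads in replicate 1 and 12579850 in replicate 2, of which rRNA features took 59.8% and 62.3%. The h- pheromone genes mfm1, mfm2 and mfm3 and the receptor gene mam2 had from 597 to 4405 reads per library. The genes map2 and map3 of the other mating type had at most 14 reads, and the meiotic genes mei4, spo5 and rec8 at most 22.

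Most snoRNAs guide single-nucleotide modification of rRNA, but U3, U14 and U17 are needed for the cleavages that release 18S rRNA. U3 is a box C/D snoRNA of the small subunit (SSU) processome, the particle assembled on nascent pre-rRNA. The box A element of U3 pairs with the 5′ end of 18S rRNA. U17, called snR30 in yeast, is a box H/ACA snoRNA that carries motifs m1 and m2 in its 3′ hairpin, which pair with an internal stretch of 18S rRNA instead of guiding pseudouridine formation.

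The sequences below were read from the RefSeq genome of assembly ASM294v3, whose positions of these genes are those of the count table. The snu32 feature is 255 nt long and lies at II:3958832-3959086 on the minus strand. It is shown whole, as the U3 gene whose feature covers the whole RNA, with the box A core and the box D in capitals.
snu32: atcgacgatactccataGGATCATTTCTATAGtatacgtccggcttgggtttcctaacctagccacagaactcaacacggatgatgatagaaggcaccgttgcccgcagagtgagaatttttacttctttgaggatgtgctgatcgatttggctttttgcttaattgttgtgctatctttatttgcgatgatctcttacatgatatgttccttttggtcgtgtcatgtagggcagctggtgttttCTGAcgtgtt

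The box A core, taken as the 15 nt GGATCATTTCTATAG from nt 18 to nt 32 of snu32, had 2 matches on both strands of the chromosomes, which are those of the U3 loci. The 7 nt AGGATCA, nt 17 to 23 of snu32, are the reverse complement of nt 9 to 15 of 18S rRNA, in capitals in the first 20 nt of that RNA, and had no other complement in its 1842 nt.
18S first 20 nt: tacctggtTGATCCTgccag

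At the snu3 locus, the stretch that aligned with snu32 from end to end was a run of 256 nt at I:987692-987947, on the minus strand. Of 256 aligned columns, 234 were identical (91.4%). The 22 differences, 1 of them an inserted nt, all fell between nt 91 and nt 224 of snu32, so the first 90 nt and the last 31 nt were the same in both genes. The part from the first difference to the 3′ end is shown for both genes, with the differing bases in capitals, since only these bases can tell reads of the U3 genes apart.
snu32 from the first difference: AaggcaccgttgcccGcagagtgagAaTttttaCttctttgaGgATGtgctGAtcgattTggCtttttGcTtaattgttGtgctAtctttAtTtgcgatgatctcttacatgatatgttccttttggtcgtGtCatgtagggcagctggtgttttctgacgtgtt
snu3 run from the first difference: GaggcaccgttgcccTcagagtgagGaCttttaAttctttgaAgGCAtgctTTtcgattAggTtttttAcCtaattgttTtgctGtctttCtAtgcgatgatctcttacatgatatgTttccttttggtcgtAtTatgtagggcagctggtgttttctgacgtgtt

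The snu3 feature of the count table does not coincide with this run. It is 256 nt long and lies at I:987570-987825, also in the RefSeq annotation, so that it starts at nt 123 of the run and ends 122 nt past it. It covered 134 nt (52.3%) of the run, with 18 of the 22 differences and box D, and left out the first 122 nt, with box A. Since nanopores read RNA from its 3′ end, a read of the U3 run that starts at its 3′ end would overlap the feature, but the counting rule is not given in the sources used here, and the values of snu3 stand for the deposited interval.

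The snR30 feature is 326 nt long and lies at I:3394875-3395200 on the plus strand. Its last 86 nt, from nt 241, are shown because they hold the elements that define U17. The motif m1 (ATATTCCTA, at nt 257), the motif m2 (AAACCAT, at nt 307) and the terminal ACA (at nt 321, followed by exactly 3 nt) are in capitals.
snR30 3-prime part: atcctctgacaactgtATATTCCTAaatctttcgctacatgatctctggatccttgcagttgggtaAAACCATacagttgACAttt

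The 6 nt TATTCC of m1 had 1 complement in 18S rRNA, at nt 816, and AAACCA of m2 had 2, at nt 348 and nt 851. Such a match is a description of letters and not a measured contact. The GC content was 42.8% for snu32, 41.8% for the snu3 run and 43.6% for snR30.

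The 3 RNAs were among the most abundant of the table. Levels are given as CPM, the reads of a feature per 1000000 reads of its library, and per nt of feature length. In direct RNA sequencing a read stands for 1 RNA molecule or part of one, so CPM is the scale nearer to numbers of molecules. The scale per nt raises short RNAs against long ones, such as mRNAs, and is shown beside it.

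snu32 had 176645 and 146137 reads in replicates 1 and 2, or 13723.5 and 11616.8 CPM, with a mean of 12670.1 ± 1489.7 CPM (SD, n = 2). snu3 had 142953 and 113873 reads, or 11106 and 9052 CPM, with a mean of 10079 ± 1452 CPM. snR30 had 95414 and 71283 reads, or 7413 and 5666 CPM, with a mean of 6540 ± 1235 CPM. Each of the 3 RNAs was higher in replicate 1, and the order snu32, snu3, snR30 was the same in both libraries.

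**Figure D1:**
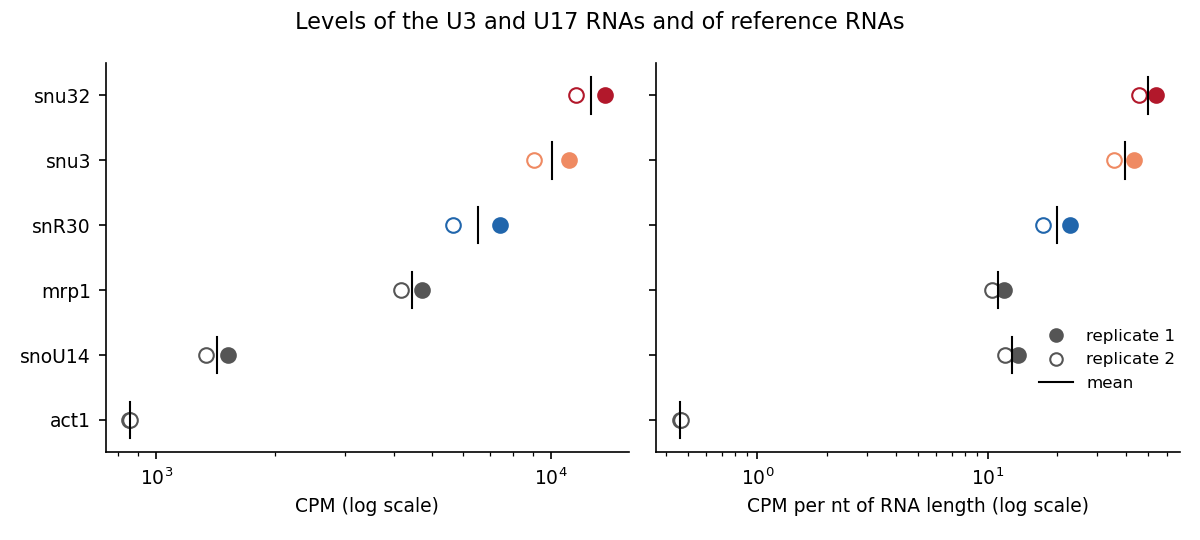
Level of each RNA in CPM (left) and in CPM per nt of RNA length (right), both on log axes, with filled circles for replicate 1, open circles for replicate 2 and a line at their mean. snu32, snu3 and snR30 lie above RNase MRP RNA (mrp1), U14 (snoU14) and the actin mRNA (act1) on both scales in each library.

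Per nt, snu32 had 49.7 ± 5.84 CPM, snu3 39.4 ± 5.67 and snR30 20.1 ± 3.79 (SD, n = 2), which placed them at ranks 5, 7 and 9 of all features. Among features other than rRNA the ranks per nt were 2, 4 and 6. The feature just above snu32 on this scale was srp7, the RNA of the signal recognition particle, at 91.2 ± 28.6 CPM per nt. Between the U3 genes stood snu2, the U2 spliceosomal RNA, at 49.7 ± 4.90 CPM per nt.

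snu32 and snu2 did not differ beyond the replicate spread, since snu32 was the higher one in replicate 1 (53.8 against 53.1 CPM per nt) and snu2 in replicate 2 (46.2 against 45.6). snu3 was below snu2 in each library. The snoRNA sno12, at 26.6 ± 2.10 CPM per nt, stood between snu3 and snR30, and its values of 28.1 and 25.1 overlapped with neither. Below snR30 came the U1 spliceosomal RNA snu1, with 18.1 and 16.5 CPM per nt, which overlapped with the 22.7 and 17.4 of snR30.

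The features whose levels were most like those of each RNA were found by Euclidean distance over log2(CPM + 1) in the 2 libraries, a measure that rests on level alone. For snu32 they were snu3 (distance 0.47), snu2 (0.63) and the rRNA gene SPRRNA.47 (0.81). For snu3 they were snu2 (0.17), snu32 (0.47) and snR30 (0.89). For snR30 they were rrk1, the RNA of RNase P (0.30), sno12 (0.53) and snu2 (0.74). All these neighbours are structural non-coding RNAs, and none is an mRNA.

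Within the 59 snoRNAs of the table, counted without 7 primary-transcript features, the U3 genes held 46.0% of the reads in replicate 1 and 45.5% in replicate 2, 45.7% ± 0.393 (SD, n = 2). snR30 added 13.7% and 12.5%. The 3 genes thus took 59.8% and 57.9% of snoRNA reads, and 8.02% and 6.98% of all reads outside rRNA. They are also long for snoRNAs, at ranks 6 (snu32), 5 (snu3) and 3 (snR30) by length among the 59. The 8 other snoRNAs of 200 nt or more had between 0.0786 and 2413 CPM, with a median of 339.5.

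Both U3 genes were used in vegetative cells, with more reads from snu32. Its share of U3 reads was 55.27% in replicate 1 (exact Clopper-Pearson 95% interval 55.10 to 55.44) and 56.20% in replicate 2 (56.01 to 56.40), with a mean of 55.74% ± 0.66 (SD, n = 2). By these deposited counts snu32 had 1.24 and 1.28 reads for each read of snu3. In both libraries an exact binomial test (two-sided) against equal counts gave a p too small to be represented. Because the features cover unlike parts of their U3 runs, equal counts do not stand for equal use of the genes. Intervals and tests on the reads of a library cover counting error only.

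The share differed between the libraries by 0.933 percentage points. Fisher's exact test (two-sided) on the reads of the U3 genes in the 2 libraries gave p = 1.13e-12, and 1.70e-12 after Benjamini-Hochberg adjustment over 6 pairs of RNAs. This compares the libraries and not conditions. Divided by feature length, the share of snu32 was 55.83% ± 0.66 (SD, n = 2). The features are 255 nt and 256 nt long, so this division could hardly move the share and is no check of it. It does not allow for the snu3 feature covering only 134 nt of its U3 run.

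The split between the U3 genes is uncertain beyond these errors. A read confined to the 31 nt that the genes share at the 3′ end cannot be placed from its sequence, and how the authors treated such reads is not given in the sources used here. The snu3 feature also covers a smaller part of its U3 run than the snu32 feature, and the part of either in the ratio was not tested. No other feature of the same strand overlapped any of the 3 genes. On the opposite strand, SPNCRNA.2435 shares 133 nt with the snu3 feature and had 0 and 1 reads. The nearest protein-coding gene was pdi4, 16 nt from snR30 on the opposite strand, with 42 and 38 reads.

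**Figure D2:**
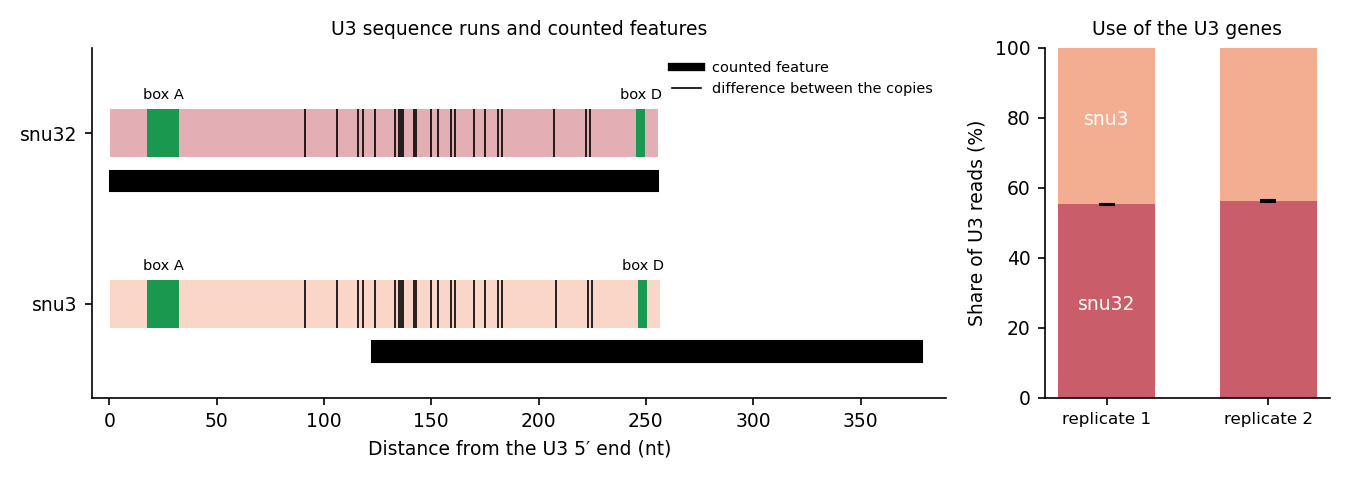
Left, the U3 run of each gene (coloured bar) against distance from the U3 5′ end in nt, with the box A core and box D in green, the 22 differences as thin lines and the counted feature as a black bar. Right, the share of U3 reads from snu32 (lower) and snu3 (upper) in each library, in percent, with the exact 95% interval of the share. The snu3 feature starts at nt 123 of its run, and snu32 gave 55.27% and 56.20% of the reads.

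The upstream sequences of the 3 genes, which lie at separate loci, were searched for a named promoter element, and not for shared elements in general. The HomolD box, with the core CAGTCAC, is a promoter element best known from ribosomal protein genes of S. pombe. It was searched on both strands from 250 nt before to 50 nt after the 5′ end, and each of the 3 genes had a match. In snu32 and the snu3 run the core lies on the opposite strand, as GTGACTG, from 59 to 53 nt before the 5′ end in both, and in snR30 it lies on the strand of the gene, from 70 to 64 nt before it. The 90 nt upstream of each 5′ end are shown with the core in capitals.
snu32 upstream: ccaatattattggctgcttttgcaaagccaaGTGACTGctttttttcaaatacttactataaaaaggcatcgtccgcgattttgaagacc
snu3 run upstream: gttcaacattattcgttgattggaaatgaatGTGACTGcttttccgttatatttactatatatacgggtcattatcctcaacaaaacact
snR30 upstream: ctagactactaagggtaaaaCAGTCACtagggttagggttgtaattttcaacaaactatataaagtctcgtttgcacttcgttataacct

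The same letters occurred in 3.25% of the windows of all genes (410 of 12605) and in 4.71% of those of protein-coding genes (241 of 5112). They occurred in 25.8% of those of snoRNA features (17 of 66), the 3 genes included. The letters were also in 3 of 6 windows of genes classed as snRNA, the class of snu1 and snu2. Among genes with an rpl or rps symbol, which encode ribosomal proteins, they occurred in 92.4% (121 of 131). The window from the annotated start of snu3 also held the core. A match describes the letters and does not show that a factor binds there.

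The reads of U14 numbered 19562 and 16786, or 1427 ± 131 CPM and 12.7 ± 1.17 CPM per nt (SD, n = 2). snu32 had 9.03 and 8.71 reads for each read of U14, snu3 had 7.31 and 6.78, and snR30 had 4.88 and 4.25. Per nt, the mean ratios to U14 were 3.90 ± 0.101 for snu32, 3.08 ± 0.162 for snu3 and 1.57 ± 0.153 for snR30. The 3 RNAs were therefore above U14 on both scales in each library, and the lead of snR30 was the smallest.

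Summed over its genes, U3 had 16.3 and 15.5 reads for each read of U14, or 15.9 ± 0.600 (SD, n = 2), and a per-nt ratio of 6.98 ± 0.263. snR30 had 0.299 and 0.274 reads for each U3 read. U14, at 112 nt, is shorter than each of the 3 RNAs, and the part of RNA length in these ratios was not tested. The study also reports U14 species extended at the 5′ or 3′ end among the direct RNA reads. How they were counted is not given in the sources used here, and their part in the ratios was not tested.

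The ratios to U14 differed between the libraries beyond counting error. By Fisher's exact test (two-sided, adjusted over 6 pairs), the adjusted p was 0.001004 for snu32, 4.69e-11 for snu3 and 3.83e-32 for snR30, with each ratio higher in replicate 1. The ratio of snR30 to snu32 was 0.540 and 0.488 (adjusted p = 2.30e-62 by the exact test) and that of snR30 to snu3 was 0.668 and 0.626 (1.02e-23).

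Against mrp1 (SPNCRNA.82), the RNA of the enzyme RNase MRP, which cuts the pre-rRNA at another site, the U3 genes together had 5.27 and 4.94 reads per read, 5.10 ± 0.228 (SD, n = 2). snR30 had 1.57 and 1.36 reads per mrp1 read. mrp1 itself had 60700 and 52602 reads. The box H/ACA snoRNA snR10, which has a role in pre-rRNA processing in budding yeast, was listed at 0 reads in both libraries. By counting error alone this allows up to 3 reads, or 0.233 CPM in replicate 1 and 0.238 CPM in replicate 2. The counting rule is not given in the sources used here, so the 0 reads do not show that snR10 was absent.

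No mRNA reached any of the 3 RNAs in the counts. The snoRNAs entered the libraries through the polyadenylation in vitro, while mRNAs carry natural poly(A) tails. The part of this in the ratios of snoRNAs to mRNAs was not tested. Of 4921 protein-coding genes with at least 10 reads in both libraries together, 0 were at or above snu32, snu3 or snR30 in either library, by reads or per nt of spliced length. For U14 the number was 18 in replicate 1 and 21 in replicate 2 by reads, and 0 in both per nt.

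The most abundant mRNAs were those of the thiamine biosynthesis genes nmt1, with 50544 and 48783 reads, and thi2, with 44824 and 50244. Both were below snR30 in each library. Per nt of spliced length the highest mRNA was that of the ribosomal protein gene rpl4101, at 5.86 ± 0.159 CPM per nt (SD, n = 2), below the 20.1 ± 3.79 of snR30.

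**Figure D3:**
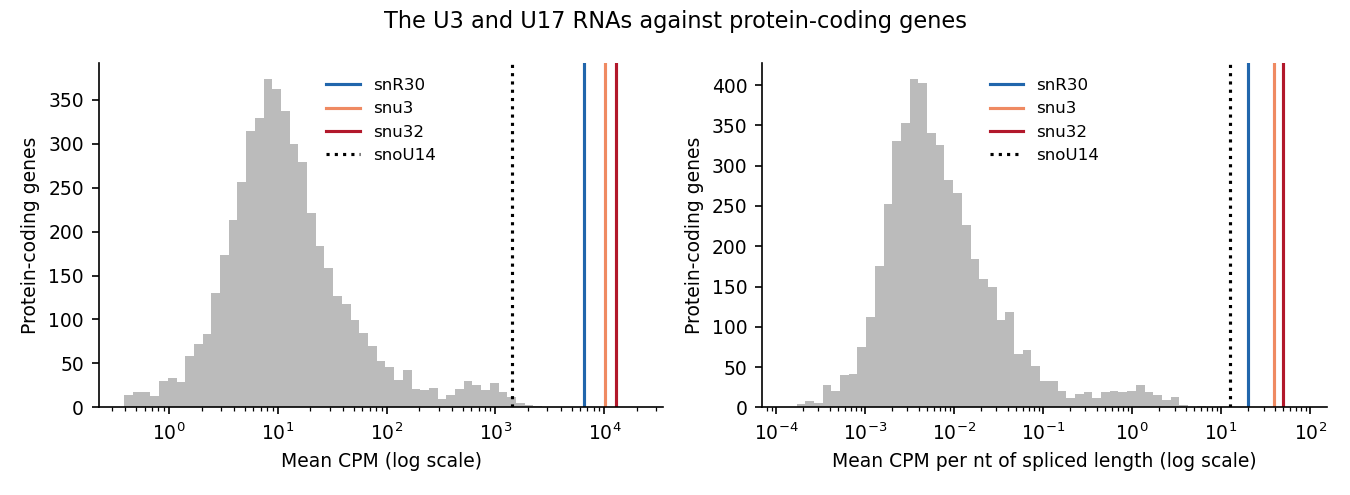
Number of protein-coding genes by mean CPM (left) and by mean CPM per nt of spliced length (right), on log axes, for the 4921 genes with at least 10 reads, with lines at the mean levels of snR30, snu3, snu32 and U14. The lines of the 3 RNAs lie to the right of every gene on both scales, and that of U14 lies within the upper tail on the left only.

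act1, the actin gene, had 10993 and 10797 reads. In replicates 1 and 2, snu32 had 16.1 and 13.5 reads for each act1 read, snu3 had 13 and 10.6, and snR30 had 8.68 and 6.60. Per nt the mean folds over act1 were 107 ± 13 for snu32, 85.1 ± 12.55 for snu3 and 43.3 ± 8.33 for snR30 (SD, n = 2). On library totals, act1 itself had a log2 ratio of -0.01 between the libraries. It was 0.05 with TMM factors and -0.10 with rRNA left out of the totals. Only the last was called different by the exact binomial test described below (adjusted p = 2.35e-05).

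Over the median protein-coding gene, snu32 was 1221 ± 195-fold higher, snu3 972 ± 181-fold and snR30 631 ± 146-fold by reads (SD, n = 2). Per nt of spliced length the folds were 8789.9 ± 1518, 6970.1 ± 1387 and 3556 ± 865. U3 reads equalled 9.46% and 7.84% of the reads of all protein-coding genes. As many reads as the U3 genes held were reached only by adding up the 10 most abundant mRNAs in replicate 1 and the 8 most abundant in replicate 2, and for snR30 this took 3 and 2 mRNAs.

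The level of all 3 RNAs differed between the libraries. An exact binomial test (two-sided) of the replicate 1 reads given the sum, with Benjamini-Hochberg adjustment at 0.05, called 4.19% of 6752 features different (2.18% were higher in replicate 1). The 3 RNAs were called in that direction, as were U14 and mrp1. The test compares these 2 libraries and covers counting error only, so features with many reads are called at small differences.

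The log2 ratio of replicate 1 to replicate 2 was 0.24 for snu32, 0.30 for snu3 and 0.39 for snR30, and the adjusted p of each was too small to be represented. It was 0.19 for U14 (adjusted p = 6.24e-33 in the exact test) and 0.17 for mrp1. Among the 895 features with at least 1000 reads, 6.59% had an absolute log2 ratio at or above that of snu32, 3.35% at or above that of snu3 and 1.79% at or above that of snR30. The coefficient of variation between replicates was 11.8% for snu32, 14.4% for snu3 and 18.9% for snR30 on library totals, where the common biological coefficient of variation over all features tested was 6.42% (edgeR). It depended on the scaling, at 14.7%, 17.4% and 21.8% with TMM factors and 7.29%, 9.95% and 14.5% with rRNA left out of the totals.

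The scalings run moved these values but not their direction. With TMM factors, which called 4.61% of features (3.73% higher in replicate 1), the log2 ratios were 0.30, 0.36 and 0.45 for snu32, snu3 and snR30. With rRNA features left out of the library totals, where 0.948% of features were called higher in replicate 1, they were 0.15, 0.20 and 0.30. The 3 RNAs were called under both. The same direction was common in the class. On library totals, 45 of 55 snoRNAs with at least 10 reads, the 3 RNAs included, had a ratio above 0. Of 4921 protein-coding genes, 1707 did. The test called 19 of the 55 toward replicate 1 and 0 toward replicate 2, beside 2.18% and 2.01% of all features tested. The median log2 ratio was 0.17 for these snoRNAs against -0.06 over all features tested. The share of rRNA was lower in replicate 1, and its part in these differences was not tested.

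**Figure D4:**
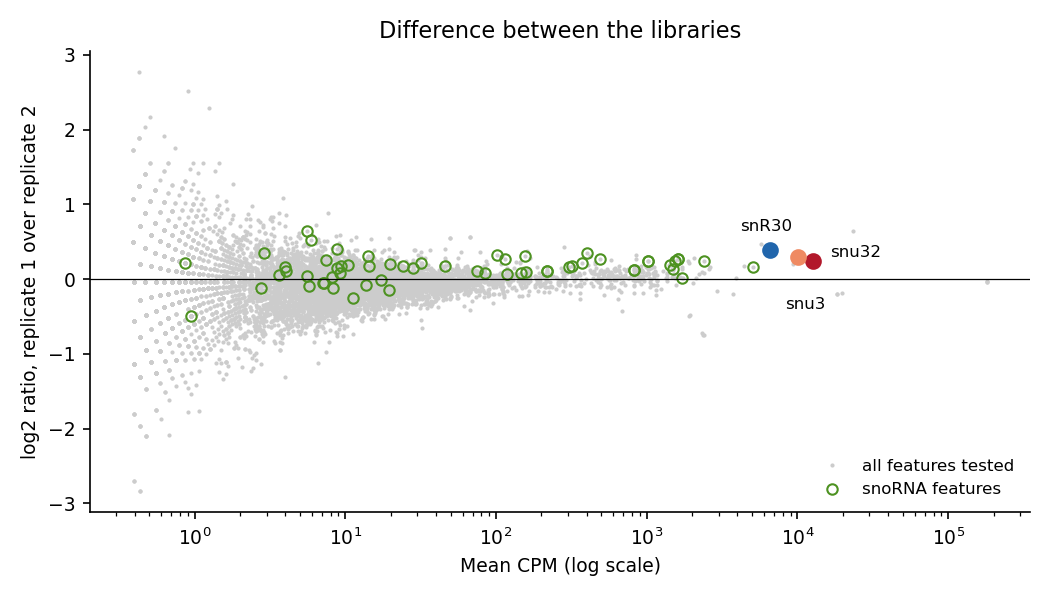
Log2 ratio of replicate 1 over replicate 2 against mean CPM (log axis) for the features tested (grey points), with snoRNA features as green circles, primary-transcript features included, and snu32, snu3 and snR30 as filled circles. The 3 RNAs lie above 0, at 0.24, 0.30 and 0.39.

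The mRNAs listed for proteins that work with these RNAs were far below them. A list of 69 names was drawn up, for the core proteins of box C/D and box H/ACA particles, the U3-specific proteins, the UTP-A and UTP-B complexes and other proteins of the SSU processome, and proteins linked to snR30. It gave 56 genes, after 11 names without a feature of that name and 2 that repeated a gene. Their median was 14.9 CPM, from 3.07 (rrp7) to 214 (snu13), beside 10.4 CPM over the 4921 protein-coding genes.

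The core proteins stood highest. Among the box C/D core genes, snu13, whose product binds the box C/D motif itself, had 2660 and 2785 reads, fib1, the methyltransferase fibrillarin, had 1678 and 1921, and the scaffold genes nop56 and nop58 had between 890 and 1005. Among the box H/ACA core genes, cbf5, the pseudouridine synthase, had 1050 and 1198 reads, gar1 had 1522 and 1468, nhp2 801 and 957 and nop10 1383 and 1394. The medians were 109 CPM for the box C/D core and 98.8 CPM for the box H/ACA core.

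The U3-specific proteins were encoded by rarer mRNAs. rrp9, which recognises the U3-specific B/C motif, had 87 and 101 reads, mpp10 had 78 and 98, imp3 and imp4, its partners, had 223 and 262 and 114 and 130, and sof1 had 199 and 223. Their median was 9.60 CPM. The U3 genes had 456 and 319 reads for each read of these 5 genes together, and 51.9 and 38.9 for each read of the box C/D core genes.

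Of the proteins linked to snR30 in budding yeast, utp23 had 103 and 124 reads, kri1 41 and 63, and the helicase genes rok1 49 and 64 and has1 403 and 389. krr1 was among the names without a feature of that name and is left out of the sum, whether or not its gene is listed under another name. snR30 had 160 and 111 reads for each read of these 4 genes together, and 20.1 and 14.2 for each read of the box H/ACA core genes.

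The UTP-A and UTP-B genes, whose complexes join the pre-rRNA before or with U3, had medians of 23.0 and 20.1 CPM, and 27 other genes of the processome list had a median of 8.96 CPM. In S. pombe the symbol dim1, one of these 27, belongs to a splicing factor and not to a partner of these RNAs. Without it, a choice made after seeing the data, the median of the other 26 was 9.10 CPM and that of the whole list of 55 was 14.9 CPM.

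**Figure D5:**
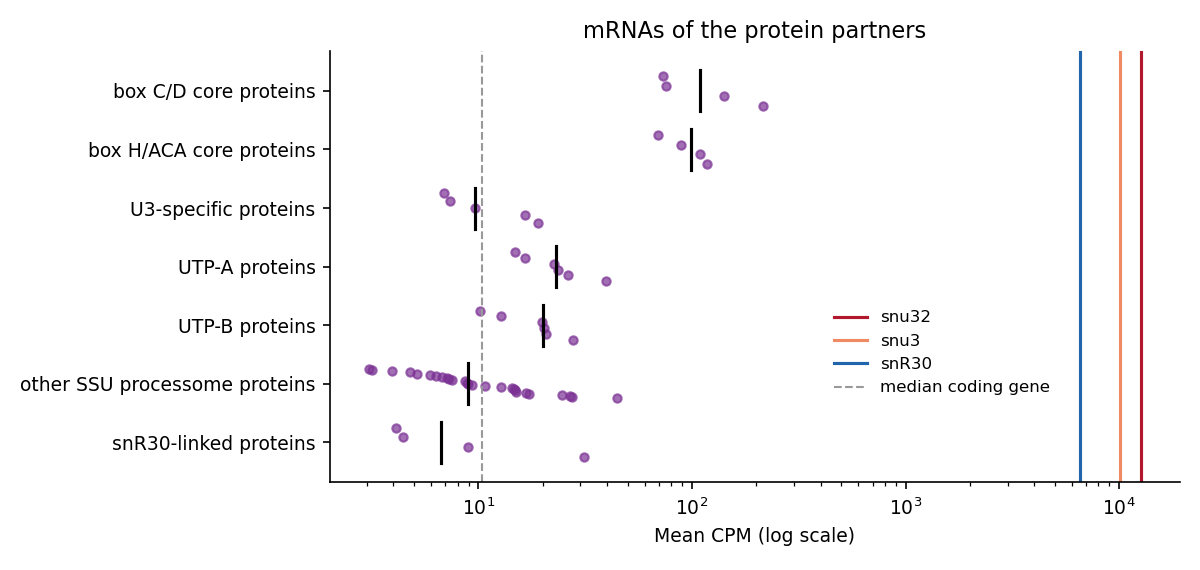
Mean CPM (log axis) of the mRNAs of the 56 listed genes by group, dim1 included, each point a gene and each black line the group median, with the median protein-coding gene as a dashed line and snR30, snu3 and snu32 as coloured lines. The core proteins stand above the other groups, and snu13, the highest at 214 CPM, lies below snR30 at 6540 CPM.

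Between the libraries, 0 of the 56 genes were called toward replicate 1 and 4 toward replicate 2 (2.01% of all features tested were called in that direction), while 52 were not called. The 4 were fib1 (log2 ratio -0.23, adjusted p = 1.09e-04), nhp2 (-0.29, 0.00109), cbf5 (-0.22, 0.00888) and utp5 of UTP-A (-0.53, 0.0136), by the same exact test. With TMM factors, where 0.874% of features were called in that direction, cbf5 was no longer called (adjusted p = 0.133) and the other 3 were. The median log2 ratio of the 56 genes was -0.13, beside -0.07 over the coding genes tested, whereas the 3 RNAs were higher in replicate 1.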

How the data were processed

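Direct RNA libraries were prepared from 2 biological replicates of a single group (SQK-RNA004 kit). The authors used dorado 7.2.13-1 for base calling and minimap2 with its splice preset for mapping. For the direct RNA reads, the build, the counting tool and the handling of multi-mapped reads were not given in the sources used here. The deposited values were taken to be raw read counts per annotated feature. Header names were shifted by 1 cell, so columns were aligned by content. Because of this shift the deposited column of replicate 1 was handled like estimated counts and rounded, which changed 0 values, so both columns were used as counts.

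Of 12684 identifiers, 12602 matched RefSeq (ASM294v3), the source of names, classes and sequences. CPM used all features. Log2 ratios add a pseudocount of 0.5 to each count. U3 loci were aligned with Biopython 1.88, spread was estimated with edgeR 4.0.16 (TMM) and alternative size factors came from DESeq2 1.42.0. With 1 library on each side, the libraries were compared by an exact binomial test over features with at least 10 reads in sum (SciPy 1.17.1, Benjamini-Hochberg), tested on simulated data. The edgeR quasi-likelihood test could not be fitted. An exact permutation over 2 pairs cannot go below p = 0.5.

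The named genes were the 3 snoRNAs, reference RNAs (U14, mrp1, snR10, act1), the 3 features nearest in level, the neighbours in CPM per nt, the core, U3-specific and snR30-linked proteins and the extremes of the list. The most abundant mRNAs, the genes at the loci and utp5, has1 and dim1 were added after their values were seen. The members and lists were chosen with earlier results of these data known. Alternatives were other scalings, count minimums, a chi-square test, values per nt and leaving out each replicate.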

Additional observations from a re-analysis of the deposited data

How the results depend on the processing

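No paired analysis was possible because only 1 group was sequenced. Reads of overlapping features were not subtracted, since no feature of the same strand overlapped the 3 genes. Leaving out either replicate gave 11616.8 to 13723.5 CPM for snu32, 9052 to 11106 for snu3 and 5666 to 7413 for snR30. The BCV, Fisher's test and the count of differing features need both libraries. TMM factors and DESeq2 size factors left levels within the replicate spread.

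Other denominators moved levels by construction. Without rRNA in the total, snu32, snu3 and snR30 had 32449.8, 25798 and 16722 CPM, and with the total of protein-coding genes only they had 48185, 38332 and 24873. Per nt, the ratios to U14 were 3.90, 3.08 and 1.57 and the folds over the median coding gene 8789.9, 6970.1 and 3556. With at least 100 reads per coding gene, the folds were 983.5 for snu32 and 782.9 for snu3.

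The 3 genes stayed higher in replicate 1 and past the threshold under every scaling, count minimum and test run. The count minimums and the chi-square test leave the log2 ratios as they are, so only the scalings could move the direction. The count of differing features was 283, and 564 without rRNA in the total, for which the cause was not tested. Calls higher in replicate 1 were 147 of 283 with library totals, 252 of 311 with TMM factors, 249 of 308 with DESeq2 size factors and 64 of 564 without rRNA, settings that shift every log2 ratio by 0.06, 0.06 and -0.09. The BCV was 6.32% with TMM factors and 5.07% over protein-coding genes alone. Depth did not limit the U3 shares, whose intervals were narrower than the difference between the libraries.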
